A study of Mus musculus with 43 samples.

Results

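Livers that had lost both the insulin receptor and the transcription factor FOXO1 were compared with livers that had kept both, a comparison called joint loss here, in mice carrying the human Z form of alpha-1-antitrypsin. The comparison takes 10 of the 43 liver RNA libraries of the series, chosen by their genotype labels: 5 of the genotype PiZ x LIRKO x F1KO (Z), mice 169, 170, 201, 206 and 207, and 5 of the genotype PiZ (Z*), mice 120, 182, 249, 251 and 285. They are written Z LIRKO F1KO and Zstar here, and both carry the source name F1IRZZ. All were male mice of 4 to 5 months, of the strain C57BL6/J x FVBN, and 1 library came from each mouse. The series as a whole set wild-type, hemizygous PiZ and homozygous PiZ mice with and without LIRKO beside each other. LIRKO stands for loss of the insulin receptor in liver and F1KO for loss of FOXO1. For context, 5 mice of the genotype PiZ (Z) and 4 of PiZ x LIRKO (Z), written Z and Z LIRKO, of the same sex, age and strain and with the source name IRZZ, were also used. The labels name no promoter or cell type behind either loss, and they do not explain the asterisk of Z*. Of the 14622 genes in the table, 13596 reached 0 log2 CPM (reads of a gene scaled to library size, on a log2 scale) in at least 3 of the 26 hemizygous libraries and were tested.

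Insulin binds its receptor on hepatocytes and acts through the substrates IRS1 and IRS2 and the kinase AKT. AKT phosphorylates FOXO1, which then leaves the nucleus, so that genes FOXO1 switches on in fasting, such as those of gluconeogenesis, Igfbp1 and Irs2, are turned down after a meal. The same pathway favours fat synthesis, and in mice without the hepatic receptor many of its effects are known to run through FOXO1. PiZ mice produce the Z variant of human alpha-1-antitrypsin, which folds poorly and accumulates in the endoplasmic reticulum of hepatocytes.

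Read totals recovered from the deposited values were 13834431 to 20014926 in Zstar and 15980590 to 21512892 in Z LIRKO F1KO. The authors' scaling moved with the groups: the effective library size was 0.875 to 0.949 times the read total in Zstar and 1.03 to 1.14 times in Z LIRKO F1KO. Gm42418, a transcript that lies over a ribosomal RNA unit, took 2.70 to 5.66% of the reads in Zstar and 0.740 to 1.62% in Z LIRKO F1KO, and Lars2, Mir6236 and Rn7sk differed with it (by -2.0, -2.26 and -2.19 on the log2 scale). These 4 were chosen after their values were seen, and their part in the results was not tested. Pancreatic enzyme transcripts stood in 3 of the 10 libraries, with Prss2, a trypsinogen, at 0.93 log2 CPM in Zstar mouse 249, 7.66 in mouse 206 and 2.45 in mouse 207. None of the 14 tested genes of pancreas, fat and muscle was called, though their median difference was 1.72. Their summed level was 1733 CPM in mouse 206 and 59.3 in mouse 207, against 7.58 to 34.0 CPM in Zstar. In mice 169, 170 and 201 it was 7.42 to 8.40 CPM. Results without the libraries above 0 log2 CPM of Prss2 are given as the values without the Prss2 libraries. The defining hepatocyte genes, albumin among them, were abundant throughout, at a mean of 12.31 to 12.65 log2 CPM in Zstar and 12.19 to 12.41 in Z LIRKO F1KO. In these bulk samples fewer cells of a type and less RNA per cell cannot be told apart.

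The libraries of a group were not alike. On the first principal component of the 10 libraries (42.5% of the variance) the Zstar mice stood at -46.9, -39.8, -11.0, -38.7 and -30.2, in the order given above, and the Z LIRKO F1KO mice at 0.4, 6.8, 34.9, 58.8 and 65.7. The groups did not overlap on it, but mice 169 and 170 lay nearer to Zstar than mice 201, 206 and 207 did, and mouse 249 was the Zstar mouse nearest to the other group. The same order recurred in single gene lists, as the plot of list levels by mouse shows, and the labels give no reason for it.

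**Figure D1:**
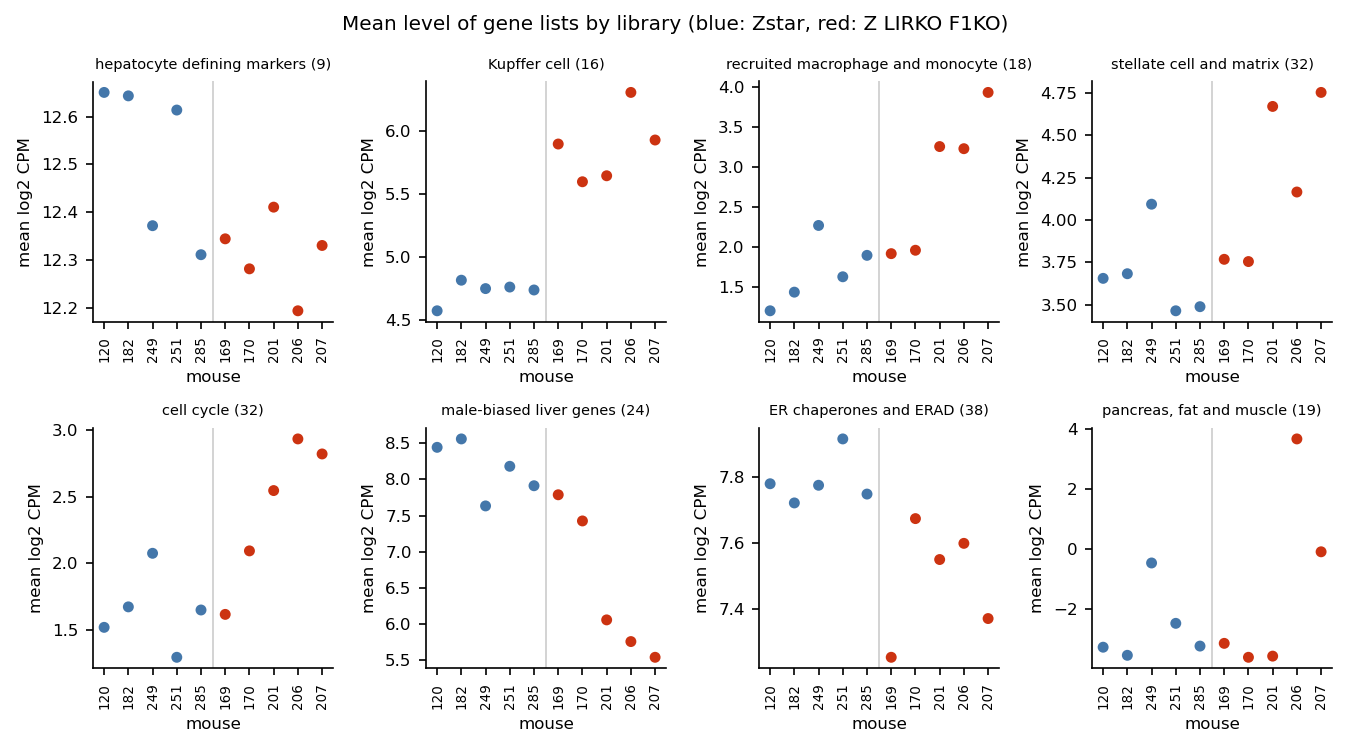
Mean log2 CPM of all genes of 8 lists in the table, by mouse, with the number of genes in brackets, for 5 Zstar (blue) and 5 Z LIRKO F1KO livers (red). Kupffer cell genes separate the groups, male-biased genes and recruited macrophage genes set mice 201, 206 and 207 apart from mice 169 and 170, and the last panel shows pancreatic transcripts in mice 249, 206 and 207.

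Both targeted genes were low in every Z LIRKO F1KO library. Insr (chromosome 8), the insulin receptor, stood at 6.70, 6.81, 6.57, 6.99 and 6.91 log2 CPM in the Zstar mice and at 5.44, 5.12, 5.08, 5.17 and 5.18 in the Z LIRKO F1KO mice. The groups did not overlap. On the log2 scale Insr fell by 1.60 ± 0.10 (estimate and SE of limma, adjusted p = 4.26e-11), a 3.03-fold decrease. Foxo1 (chromosome 3) stood at 5.41, 5.86, 5.60, 5.38 and 5.40 in Zstar and at 2.98, 2.73, 2.78, 2.70 and 2.61 in Z LIRKO F1KO. It fell by 2.77 ± 0.13 (adjusted p = 2.14e-13), 6.83-fold, with all 5 libraries below 3 log2 CPM. Foxo1 changed by -0.45 ± 0.13 in Z LIRKO against Z (adjusted p = 0.0125). Of the 30 tested genes of insulin signalling and the FOXO factors, 1 rose and 5 fell (7 and 2 with total-read scaling, 1 and 3 without the Prss2 libraries), both targeted genes included. Rictor, a subunit of the kinase complex mTORC2 that acts on AKT, rose by 0.58 ± 0.12 (adjusted p = 0.000931), and Foxo3, a relative of Foxo1, fell by 0.71 ± 0.20 (adjusted p = 0.0133). The joint-loss call was lost for Foxo3 with total-read scaling (adjusted p = 0.058). Genes next to the targeted loci were called about as often as genes elsewhere: 15 of 55 tested genes within 10 Mb of Insr (27.3%) and 10 of 44 within 10 Mb of Foxo1 (22.7%), against 23.5% of all genes. Without the Prss2 libraries the count was 5 near Insr and 8 near Foxo1, where calls over all 13596 genes also fell, from 3196 to 1683. With Z as the control group it was 7 near Insr and 12 near Foxo1, beside 2741 calls over all genes.

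The disease transgene itself was not called. Human SERPINA1 reads stood at 12.31, 12.42, 12.38, 12.19 and 12.40 log2 CPM in Zstar and at 12.04, 12.16, 12.38, 12.18 and 11.82 in Z LIRKO F1KO, and the groups overlapped. The difference was -0.23 ± 0.12 (limma, adjusted p = 0.195, 95% interval -0.48 to 0.03). Of the 5 tested mouse Serpina1 genes, which encode the mouse's own alpha-1-antitrypsins, Serpina1c fell by 1.02 ± 0.17 (adjusted p = 0.000185) and Serpina1b by 0.49 ± 0.16 (adjusted p = 0.0274). Serpina1a differed by -0.25 ± 0.17, Serpina1d by -0.22 ± 0.29 and Serpina1e by 0.28 ± 0.70, none of them called (adjusted p = 0.322, 0.612 and 0.81). With Z as the control group Serpina1e passed as higher, by 2.15 (adjusted p = 0.0322), and Serpina1a, still not called, differed by 0.17 (adjusted p = 0.531). These 5 genes are near-identical copies, so the way the authors assigned reads among them limits each single value. The 2 calls of the list became 1 without any of mice 120, 182, 251, 206 or 207. Calls with joint loss were lost for Serpina1b with total-read scaling (adjusted p = 0.131), without the Prss2 libraries (adjusted p = 0.0868), in a fit of the compared groups alone (adjusted p = 0.0981), without any of mice 120, 182, 251, 206 or 207 (adjusted p = 0.0666 to 0.0863) and Serpina1b and Serpina1c with Z as the control group (adjusted p = 0.112 to 0.367).

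Across all tested genes 3196 of 13596 (23.5%) passed an adjusted p of 0.05 in limma, 1685 higher (12.4%) and 1511 lower (11.1%) in Z LIRKO F1KO. The median difference over all genes was -0.015, and the 2 groups did not overlap at all for 1830 genes (13.5%). At least 2-fold changes were called for 969 genes (7.13%), 673 of them higher and 296 lower. Scaling by total reads, an alternative added after the data were seen, brought the split to 3773 higher and 526 lower and moved the median by 0.22, to 0.20. Small differences are therefore read against this shift, and list counts are also given with total-read scaling. Without the Prss2 libraries, which leaves 4 Zstar and 3 Z LIRKO F1KO mice, 959 genes rose and 724 fell. Without mouse 207 the calls were 1301 and 1048. Calls of named genes that these alternatives, Z as the control group, other limma settings or the loss of a single mouse took below the threshold are given with the genes. Z carries the source name IRZZ and Z LIRKO F1KO carries F1IRZZ, so with Z as control, genotype and source name cannot be told apart.

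**Figure D2:**
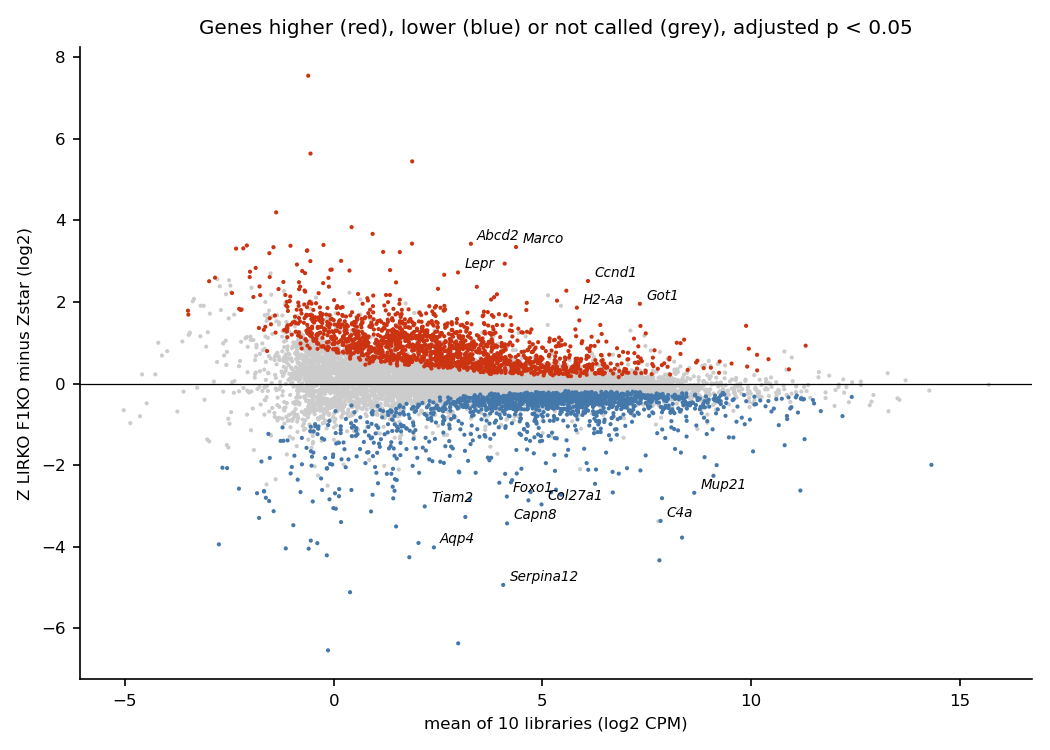
Difference of each tested gene between Z LIRKO F1KO and Zstar (log2, 5 livers a group) against its mean level over the 10 libraries (log2 CPM), with called genes in red (1685 higher) and blue (1511 lower). Lepr, Marco, Abcd2 and Ccnd1 lie highest among the labelled genes and Serpina12 lowest.

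The largest increases among genes with a mean of at least 2 log2 CPM and no overlap were in a peroxisomal transporter, a macrophage receptor, the leptin receptor and cyclin D1. Abcd2, which carries very long-chain fatty acids into peroxisomes, stood at 0.24, 0.26, 3.02, 1.12 and 3.22 log2 CPM in Zstar and at 3.86, 4.95, 5.93, 4.95 and 5.31 in Z LIRKO F1KO, and rose by 3.43 ± 0.52 (adjusted p = 5.95e-05). Mice 120 and 182 were the lowest, at under 1 log2 CPM, and the groups did not overlap. Marco, a scavenger receptor of macrophages, went from 2.32, 3.72, 2.99, 1.91 and 2.54 to 5.51, 5.20, 5.45, 7.63 and 6.42, a rise of 3.35 ± 0.46 (adjusted p = 1.88e-05) that was largest in mouse 206. Lepr, the leptin receptor, stood at 1.69, 1.67, 1.85, 1.91 and 0.97 in Zstar and at 4.48, 4.58, 3.88, 4.41 and 4.35 in Z LIRKO F1KO. All 5 joint-loss livers lay above 3 log2 CPM and all 5 Zstar livers below 2, a rise of 2.72 ± 0.31 (adjusted p = 1.76e-06), 6.6-fold. Ccnd1, the cyclin D1 that drives entry into the cell cycle, went from 4.49, 4.33, 6.01, 4.20 and 5.13 to 6.38, 7.13, 7.78, 7.41 and 8.03, a rise of 2.51 ± 0.29 (adjusted p = 2.91e-06). Its groups lay apart, with Zstar mouse 249 and joint-loss mouse 169 the nearest pair. Other large increases were Emp2 (2.12 ± 0.25, adjusted p = 2.71e-06), an epithelial membrane protein, Cyp39a1 (2.06 ± 0.38, adjusted p = 0.000422), an oxysterol hydroxylase of bile acid synthesis, Lpl (2.03 ± 0.28, adjusted p = 2.04e-05), the lipoprotein lipase, and Got1 (1.95 ± 0.39, adjusted p = 0.000894), the cytosolic aspartate aminotransferase. They also included Serpina3g (1.90 ± 0.31, adjusted p = 0.000112), a protease inhibitor, Mfsd7c (1.86 ± 0.32, adjusted p = 0.000219), a membrane transporter, and H2-Aa (1.86 ± 0.25, adjusted p = 1.88e-05), a chain of MHC class II. With joint loss, no call was left for Abcd2, Cyp39a1 and Got1 with Z as the control group (adjusted p = 0.163 to 0.922).

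The largest decreases by the same rule were in a secreted serpin, a water channel, a chloride channel protein and a calpain. Serpina12, which encodes the secreted serpin vaspin, stood at 6.56, 7.15, 5.75, 6.96 and 6.23 log2 CPM in Zstar and at 2.38, 2.41, 1.83, 1.15 and 0.18 in Z LIRKO F1KO. It fell by 4.94 ± 0.48 (adjusted p = 3.18e-07), 30.7-fold, and the lowest Zstar liver was more than 3 log2 units above the highest joint-loss liver. Aqp4, a water channel, went from 4.08, 5.34, 4.97, 3.74 and 3.92 to -0.20, 1.74, 0.60, -0.57 and 0.39, a drop of 4.02 ± 0.41 (adjusted p = 4.82e-07), without overlap. Clic5, an intracellular chloride channel protein, stood near 4 log2 CPM in all Zstar livers (3.83 to 4.16) and at -0.97, -2.42, -0.12, 2.52 and 1.38 in the others. Mice 206 and 207, the joint-loss mice with pancreatic transcripts, stood higher than mice 169, 170 and 201, and the part of those transcripts was not tested. Clic5 fell by 3.91 ± 0.51 (adjusted p = 1.27e-05), and by 5.16 without the Prss2 libraries. Capn8, a calpain protease, showed the reverse order within the group, at 4.02, 3.69, 2.18, 2.34 and -0.05 against 5.41 to 6.17 in Zstar, and fell by 3.43 ± 0.65 (adjusted p = 0.000568). The remaining large decreases were C4a (-3.37 ± 0.38, adjusted p = 1.58e-06), a complement gene with a near-copy in C4b, Tiam2 (-3.01 ± 0.21, adjusted p = 8.62e-10), an activator of the GTPase RAC1, Col27a1 (-2.97 ± 0.27, adjusted p = 1.46e-07), a fibrillar collagen, Nxpe2 (-2.84 ± 0.46, adjusted p = 0.000113), Selenbp2 (-2.81 ± 0.64, adjusted p = 0.00245), a male-biased gene with a near-copy in Selenbp1, Foxo1 itself, Dio1 (-2.73 ± 0.59, adjusted p = 0.00163), the type 1 deiodinase of thyroid hormone, and Mup21 (-2.68 ± 0.63, adjusted p = 0.00318), a major urinary protein. In the joint-loss comparison the call was lost for Capn8, Mup21 and Selenbp2 with Z as the control group (adjusted p = 0.129 to 0.55).

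Genes that FOXO1 is known to switch on, and genes of gluconeogenesis, did not move together. Of such genes 2 of 23 tested members rose and 7 fell, at a median of 0.086 (7 and 3 with total-read scaling, 2 and 3 without the Prss2 libraries), beside a median of -0.015 over all genes. The share called was 39.1%, beside 23.5% over all genes (12.4% higher, 11.1% lower). The decreases were in Bcl6, a transcriptional repressor (-1.35 ± 0.36, adjusted p = 0.00778), Cited2, a co-activator of transcription (-0.87 ± 0.18, adjusted p = 0.00126), Sesn3, a sestrin that restrains mTORC1 (-0.80 ± 0.15, adjusted p = 0.000441), and Apoc3, an apolipoprotein that slows triglyceride clearance (-0.61 ± 0.17, adjusted p = 0.0107). Lower too were Slc37a4, the glucose 6-phosphate transporter of the endoplasmic reticulum (-0.60 ± 0.21, adjusted p = 0.0408), Mttp, which loads lipid onto apolipoprotein B (-0.46 ± 0.14, adjusted p = 0.0162), and Pcx, the pyruvate carboxylase that opens gluconeogenesis (-0.42 ± 0.13, adjusted p = 0.0202). The 2 increases were in Ppargc1a, the co-activator PGC-1alpha, from 2.48, 3.60, 3.18, 3.01 and 2.01 to 3.95, 3.66, 4.37, 4.78 and 4.93 log2 CPM (1.48 ± 0.28, adjusted p = 0.000544), and in Fst, the activin antagonist follistatin, from 0.97, 0.92, 2.85, 2.59 and 1.41 to 3.35, 3.01, 3.22, 3.30 and 4.84 (1.80 ± 0.47, adjusted p = 0.00756). Neither overlapped between the groups, but against the hemizygous PiZ group Z, which served as another control, Ppargc1a differed by -0.14. The joint-loss call was lost for Apoc3, Mttp, Pcx and Slc37a4 with total-read scaling (adjusted p = 0.0777 to 0.131), without the Prss2 libraries (adjusted p = 0.0556 to 0.132), Bcl6, Cited2, Mttp and Ppargc1a with Z as the control group (adjusted p = 0.113 to 0.781), Mttp without mouse 206 (adjusted p = 0.0573) and Pcx without either of mice 182 or 207 (adjusted p = 0.0501 to 0.0709). The same was seen for Slc37a4 without the variance trend (adjusted p = 0.0523) and without any of mice 120, 182, 251, 201, 206 or 207 (adjusted p = 0.0585 to 0.142).

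The other 14 genes of the list were not called. G6pc, the glucose 6-phosphatase, differed by -0.59 ± 0.33 (adjusted p = 0.198), Pck1, the cytosolic PEP carboxykinase, by 0.15 ± 0.21 (adjusted p = 0.64), and Fbp1, the fructose bisphosphatase, by 0.096 ± 0.11 (adjusted p = 0.559). Pck1 and Fbp1 were among the abundant transcripts, and their 95% intervals ran from -0.28 to 0.58 and from -0.13 to 0.32. Igfbp1, a secreted IGF-binding protein and a classical FOXO1 target, stood at 5.86, 6.10, 7.46, 7.88 and 6.97 log2 CPM in Zstar and at 6.75, 6.64, 8.35, 8.51 and 9.87 in Z LIRKO F1KO. The groups overlapped, mouse 207 was the highest of all 10, and the difference of 1.17 ± 0.54 was not called (adjusted p = 0.119). Without mouse 170 it passed, with a difference of 1.52 (adjusted p = 0.0465). Irs2, the insulin receptor substrate, stood at 5.55, 4.95, 5.67, 5.60 and 4.59 in Zstar and at 4.53, 4.20, 5.84, 6.03 and 6.18 in Z LIRKO F1KO, low in mice 169 and 170 and high in the other three, and differed by 0.086 ± 0.34 (adjusted p = 0.882). Trp53inp1, a stress-induced protein, had the same order within the group, at 6.86, 6.39, 8.08, 8.66 and 8.98 against 7.07 to 8.36 in Zstar (0.26 ± 0.36, adjusted p = 0.647). Differences of -0.33 for Cdkn1a, -0.077 for Klf15, 0.052 for Ccng2, 0.17 for Cdkn1b, 0.19 for Sesn1, 0.32 for Pdk4, 0.64 for Txnip and 0.90 for Fbxo32 completed the list, with adjusted p between 0.0698 and 0.869. With total-read scaling Fbp1, Cdkn1b, Sesn1, Txnip and Fbxo32 passed as higher, Txnip also in a fit of the 2 groups alone. With Z as the control group G6pc, Klf15 and Ccng2 passed as lower, Ccng2 at -0.80 (adjusted p = 0.00374). With that control 5 others, called against neither group, went from above to below 0: Trp53inp1 at -0.88, Pck1 at -0.44, Igfbp1 at -0.28, Txnip at -0.064 and Fbp1 at -0.062 (adjusted p = 0.0872 to 0.921).

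To set the loss of both genes beside the loss of the receptor alone, Z LIRKO (4 mice, PiZ x LIRKO) was compared with Z (5 mice, PiZ) in the same fit. These mice carry another source name, IRZZ, and share no library with the first comparison, so FOXO1 status and source name cannot be told apart in the difference between the comparisons. Receptor loss alone gave 4669 calls (34.3%), 2268 higher and 2401 lower, and the difference between the comparisons was itself called for 901 genes (6.63%). Both comparisons called 1704 genes in the same direction, 53.3% of the joint-loss calls and 36.5% of the receptor-loss calls, and 50 in opposite directions. For 734 genes, 15.7% of the receptor-loss calls, the difference ran against the effect of receptor loss alone: 346 were raised and 388 lowered by receptor loss. Of these, 603 were not called in the joint-loss comparison, 81 were called in the same direction and 50 in the opposite one. The receptor-loss call and the difference share the Z and Z LIRKO libraries, so the size of this class is in part set by how it was picked. A further 141 genes were called with joint loss, not with receptor loss, and in the difference (41 higher and 100 lower with joint loss). Without the Prss2 libraries the difference was called for 363 genes, and without Z LIRKO mouse 1428 for 535. Prss2 also stood above 0 log2 CPM in Z mouse 1410 (1.65) and in Z LIRKO mice 1427 (5.23) and 1428 (0.098). These were left out as well, so only Z LIRKO mice 1412 and 1450 remained for the difference without the Prss2 libraries.

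**Figure D3:**
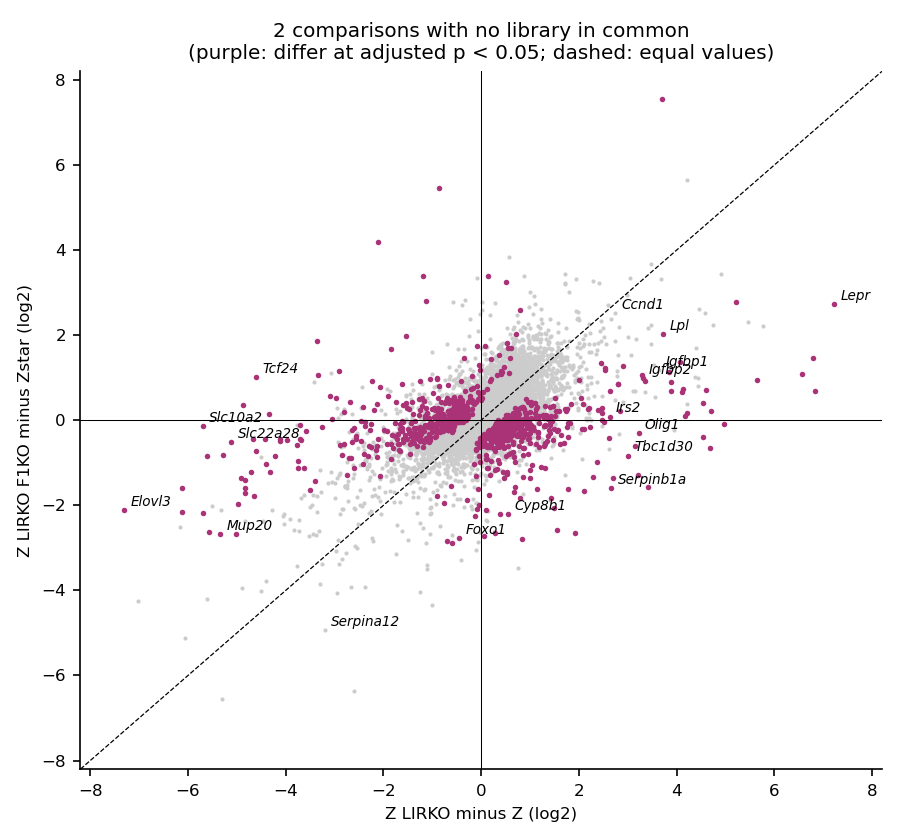
Each tested gene by its difference with receptor loss alone (Z LIRKO minus Z, x axis, log2) and with joint loss (Z LIRKO F1KO minus Zstar, y axis, log2), with the 901 genes whose difference between the comparisons was called in purple and equal values on the dashed line. Slc10a2 and Irs2 lie near 0 on the y axis and far from 0 on the x axis, Lepr stays above 0 on both, and Foxo1 and Cyp8b1 are low with joint loss.

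The genes that differed most between the comparisons moved strongly with receptor loss alone and little, or less, with joint loss. Receptor loss alone enters the difference with a minus sign, so a ranking by the difference in part favours such genes. Slc10a2, a sodium-dependent bile acid transporter, went from 5.33, 5.55, 5.58, 6.0 and 5.23 log2 CPM in Z to 0.27, 0.52, -1.27 and -0.16 in Z LIRKO, and stood at 5.97, 6.03, 5.11, 5.17 and 5.16 in Z LIRKO F1KO against 5.0 to 6.39 in Zstar. The difference between the comparisons was 5.55 (95% interval 4.49 to 6.61, limma adjusted p = 2.45e-07). Tcf24, a transcription factor of the basic helix-loop-helix family, changed by -4.61 ± 0.55 with receptor loss alone and differed by 1.01 ± 0.52 with joint loss (adjusted p = 0.162), where its Zstar values ran from -0.05 to 3.39. Against Z as the control group Tcf24 differed by -1.49 (adjusted p = 0.0445). Elovl3, a fatty acid elongase, changed by -7.31 ± 0.79 with receptor loss alone and by -2.12 ± 0.75 with joint loss (adjusted p = 0.0415). Slc22a28, an organic anion transporter with near-copies, changed by -5.11 ± 0.39 with receptor loss alone and differed by -0.51 ± 0.37 with joint loss (adjusted p = 0.332), and by 0.34 with Z as the control group (adjusted p = 0.568). Between the comparisons Tcf24 differed by 5.62 (95% interval 4.06 to 7.18, limma adjusted p = 4.48e-05), Elovl3 by 5.19 (95% interval 2.95 to 7.44, limma adjusted p = 0.00451) and Slc22a28 by 4.60 (95% interval 3.49 to 5.71, limma adjusted p = 8.3e-06). Calls with joint loss were lost for Elovl3 with total-read scaling (adjusted p = 0.0516), without the Prss2 libraries (adjusted p = 0.263), in a fit of the compared groups alone (adjusted p = 0.109), without the variance trend (adjusted p = 0.0538) and without any of mice 182, 251, 285, 201, 206 or 207 (adjusted p = 0.0781 to 0.155). A called difference between the comparisons was lost for Elovl3 with voom weights (adjusted p = 0.0907).

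In the other direction stood Lepr, Serpinb1a, Tbc1d30 and Olig1. Lepr reached 9.11, 9.30, 9.25 and 9.20 log2 CPM in Z LIRKO from 1.49, 1.76, 2.39, 2.08 and 2.25 in Z, a rise of 7.22 ± 0.33 (adjusted p = 1.47e-13), so that the joint-loss livers lay between the 2 groups and the difference was -4.50 (95% interval -5.42 to -3.57, limma adjusted p = 8.39e-07). Tbc1d30, a regulator of RAB GTPases, rose by 3.0 ± 0.24 with receptor loss alone and fell by 0.83 ± 0.23 with joint loss (adjusted p = 0.0108). Serpinb1a, an inhibitor of neutrophil elastase, likewise rose by 2.66 ± 0.48 and fell by 1.59 ± 0.45 (adjusted p = 0.0125). Olig1, a transcription factor, rose by 3.22 ± 0.66 and differed by -0.31 ± 0.62 (adjusted p = 0.757), and by 0.69 with Z as the control group (adjusted p = 0.482). Between the comparisons Tbc1d30 differed by -3.83 (95% interval -4.52 to -3.14, limma adjusted p = 2e-07), Serpinb1a by -4.26 (95% interval -5.62 to -2.90, limma adjusted p = 0.000259) and Olig1 by -3.53 (95% interval -5.41 to -1.65, limma adjusted p = 0.0207). With joint loss, no call was left for Serpinb1a in a fit of the compared groups alone (adjusted p = 0.0544), with voom weights (adjusted p = 0.118) and Serpinb1a and Tbc1d30 without the Prss2 libraries (adjusted p = 0.0697 to 0.101). The difference between the comparisons was no longer called for Olig1 without the Prss2 libraries (adjusted p = 0.0713) and without mouse 1428 (adjusted p = 0.0525).

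Among the 23 FOXO1-activated and gluconeogenic genes, receptor loss alone raised 8 and lowered 3, and 4 were called in the difference between the comparisons. Of all genes 34.3% were called with receptor loss alone and 6.63% in the difference. Irs2 rose from 4.52, 4.92, 4.47, 5.55 and 5.42 log2 CPM in Z to 6.83, 7.37, 7.95 and 8.28 in Z LIRKO (2.63 ± 0.36, adjusted p = 7.19e-06) and had no called difference with joint loss, a difference between the comparisons of -2.54 (95% interval -3.57 to -1.52, limma adjusted p = 0.00265). Sesn3 rose by 0.57 ± 0.16 with receptor loss alone and fell by 0.80 ± 0.15 with joint loss, and Pcx rose by 0.39 ± 0.14 and fell by 0.42 ± 0.13. The differences were -1.37 (95% interval -1.81 to -0.92, limma adjusted p = 0.000317) and -0.81 (95% interval -1.21 to -0.42, limma adjusted p = 0.0106). Trp53inp1 fell with receptor loss alone (-1.48 ± 0.38), and its difference was 1.74 (95% interval 0.65 to 2.83, limma adjusted p = 0.0475). Igfbp1 reached 11.63, 12.37, 12.18 and 11.65 in Z LIRKO against 8.11, 7.32, 8.45, 8.39 and 9.27 in Z, a rise of 3.65 ± 0.57 (adjusted p = 3.84e-05), but the difference between the comparisons, -2.47 (95% interval -4.10 to -0.85, limma adjusted p = 0.058), did not pass. For G6pc it was -1.32 (95% interval -2.30 to -0.34, limma adjusted p = 0.0951). In the joint-loss comparison the call was lost for Pcx with total-read scaling (adjusted p = 0.131), without the Prss2 libraries (adjusted p = 0.0556) and without either of mice 182 or 207 (adjusted p = 0.0501 to 0.0709). Between the comparisons, the call was lost for Pcx and Trp53inp1 without the Prss2 libraries (adjusted p = 0.0824 to 0.0904), Trp53inp1 in a fit of the compared groups alone (adjusted p = 0.0879), without the variance trend (adjusted p = 0.0641), with voom weights (adjusted p = 0.0534) and without any of mice 1410, 1442, 1445, 1412, 1428, 1450, 120, 182, 251, 285, 201, 206 or 207 (adjusted p = 0.0522 to 0.095).

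**Figure D4:**
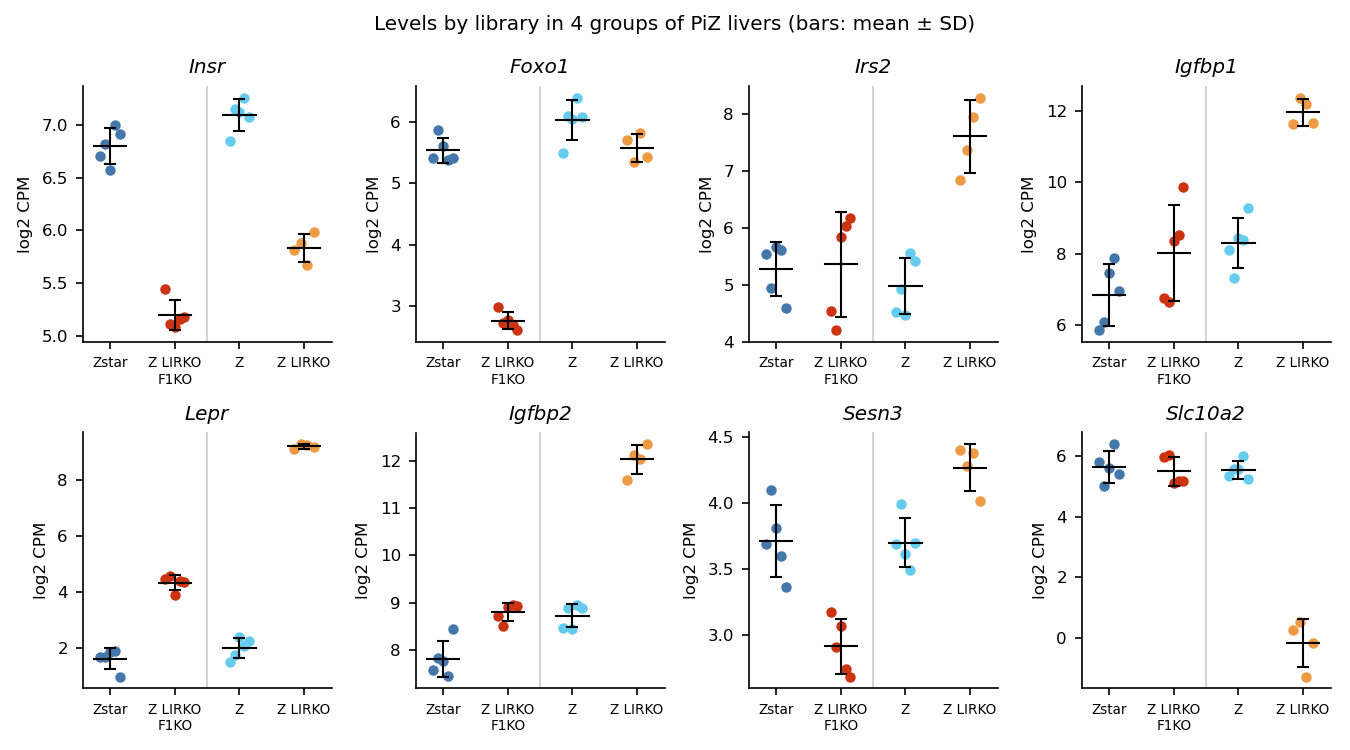
Log2 CPM of 8 genes in every liver of 4 groups, with mean and SD as bars, the joint-loss comparison left of the grey line (Zstar and Z LIRKO F1KO, 5 livers each) and receptor loss alone right of it (Z, 5 livers, and Z LIRKO, 4 livers). Insr is low in both groups with receptor loss and Foxo1 lowest in Z LIRKO F1KO, where Irs2 and Slc10a2 overlap with Zstar.

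The promoters of the list members called in the difference between the comparisons are printed because FOXO1 binds DNA directly, at the core GTAAACA or the insulin response element CAAAACA. Each run holds 250 bases before and 50 after the start of transcription in RefSeq on GRCm38.p6, 5′ to 3′ on the gene's strand, with matches of either motif on either strand in capitals. A pair of promoters is listed for Pcx, and the table used gave 3 of these 4 genes. Igfbp1 and G6pc were added, after their values were seen, as classical FOXO1 targets. The promoters lie at chr8:11008880-11009179, minus strand (Irs2), chr9:14276051-14276350, plus strand (Sesn3), chr19:4510222-4510521, plus strand and chr19:4594069-4594368, plus strand (Pcx), chr11:7197537-7197836, plus strand (Igfbp1) and chr11:101367466-101367765, plus strand (G6pc).
Irs2: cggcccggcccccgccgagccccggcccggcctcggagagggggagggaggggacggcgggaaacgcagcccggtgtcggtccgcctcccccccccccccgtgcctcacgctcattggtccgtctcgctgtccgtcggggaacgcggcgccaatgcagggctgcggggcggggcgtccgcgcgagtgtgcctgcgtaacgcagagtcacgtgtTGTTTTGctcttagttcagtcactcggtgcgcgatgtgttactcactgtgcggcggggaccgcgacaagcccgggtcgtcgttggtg
Sesn3: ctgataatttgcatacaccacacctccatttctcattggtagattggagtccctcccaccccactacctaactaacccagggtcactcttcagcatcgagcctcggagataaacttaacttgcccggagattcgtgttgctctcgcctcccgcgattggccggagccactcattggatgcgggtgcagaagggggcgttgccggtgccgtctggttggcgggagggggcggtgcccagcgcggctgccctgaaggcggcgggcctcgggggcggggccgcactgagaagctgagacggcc
Pcx, first start: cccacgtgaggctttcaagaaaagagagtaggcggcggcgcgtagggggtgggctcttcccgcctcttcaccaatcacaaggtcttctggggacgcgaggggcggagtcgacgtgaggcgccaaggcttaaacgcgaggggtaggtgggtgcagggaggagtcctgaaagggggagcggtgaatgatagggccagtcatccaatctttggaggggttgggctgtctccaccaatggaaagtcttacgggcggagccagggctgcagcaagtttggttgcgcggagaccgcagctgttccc
Pcx, second start: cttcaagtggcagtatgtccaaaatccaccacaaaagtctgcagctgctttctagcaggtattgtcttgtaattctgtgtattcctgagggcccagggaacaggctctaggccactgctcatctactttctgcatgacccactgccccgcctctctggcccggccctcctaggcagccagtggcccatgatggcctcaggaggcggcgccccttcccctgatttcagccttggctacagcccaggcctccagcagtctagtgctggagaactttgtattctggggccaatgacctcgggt
Igfbp1: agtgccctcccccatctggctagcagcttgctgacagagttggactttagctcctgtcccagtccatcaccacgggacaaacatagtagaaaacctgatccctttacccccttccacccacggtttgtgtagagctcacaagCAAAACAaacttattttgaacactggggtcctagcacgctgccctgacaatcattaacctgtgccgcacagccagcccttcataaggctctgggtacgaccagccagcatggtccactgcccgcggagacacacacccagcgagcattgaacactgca
G6pc: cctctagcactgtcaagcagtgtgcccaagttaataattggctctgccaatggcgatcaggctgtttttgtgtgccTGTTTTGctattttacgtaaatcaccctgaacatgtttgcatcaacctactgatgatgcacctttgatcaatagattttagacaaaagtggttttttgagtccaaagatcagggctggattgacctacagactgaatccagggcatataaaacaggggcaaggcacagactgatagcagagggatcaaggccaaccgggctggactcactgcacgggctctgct

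CAAAACA was found once each in the Irs2, Igfbp1 and G6pc windows, and neither motif in the Sesn3 and Pcx windows. Of all 32851 promoters in the table, 6.28% hold CAAAACA and 3.65% hold GTAAACA, on either strand. A match is a description of the letters, and its absence says only that these letters are not in this window.

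More than any other list, genes that are normally higher in male than in female mouse liver held decreases with joint loss. This sex bias is set by the pattern of growth hormone pulses, which acts through STAT5 and BCL6 in hepatocytes. Of the male-biased genes none of 24 tested members rose and 13 fell, at a median of -1.33 (0 and 12 with total-read scaling, 0 and 10 without the Prss2 libraries), and of the female-biased genes 6 of 27 tested members rose and none fell, at a median of 0.38 (9 and 0 with total-read scaling, 4 and 0 without the Prss2 libraries), beside 12.4% higher and 11.1% lower and a median of -0.015 over all genes. Mup20, the pheromone darcin among the major urinary proteins, stood at 7.84, 8.19, 8.23, 7.49 and 8.35 log2 CPM in Zstar and at 5.92, 5.56, 5.28, 5.14 and 4.84 in Z LIRKO F1KO. It fell by 2.67 ± 0.32 (adjusted p = 4.17e-06) without overlap, and Mup3, a further urinary protein, by 2.63 ± 0.46 (adjusted p = 0.000279). The urinary protein genes are near-identical copies, so the split of reads among them is uncertain. The cytochromes P450 Cyp2u1 (-1.88 ± 0.31, adjusted p = 0.000118) and Cyp2d9 (-1.32 ± 0.29, adjusted p = 0.00189), the second of a family of near-copies, were lower. Over the whole male-biased list the mean log2 CPM was 8.44, 8.56, 7.63, 8.18 and 7.91 in Zstar and 7.79, 7.43, 6.06, 5.76 and 5.54 in Z LIRKO F1KO, with mouse 169 within the Zstar range, mouse 170 just below it and mice 201, 206 and 207 lowest. In summed CPM mouse 170 also lay within the Zstar range. Female-biased Cyp2a4, a steroid hydroxylase with a near-copy in Cyp2a5, rose by 2.94 ± 0.63 (adjusted p = 0.00158). With receptor loss alone 0 higher and 19 lower calls were made in the male-biased list (median -2.68) and 12 higher and 1 lower in the female-biased list. Receptor loss alone was called for 34.3% of all genes, and the difference between the comparisons for 6.63%. The difference between the comparisons was called for 8 male-biased genes toward smaller decreases or higher levels and for 1 the other way, Cyp2u1. Mup20 differed between the comparisons by 2.67 (95% interval 1.71 to 3.63, limma adjusted p = 0.000932), Mup3 by 2.95 (95% interval 1.55 to 4.34, limma adjusted p = 0.0093) and Cyp2u1 by -1.59 (95% interval -2.50 to -0.67, limma adjusted p = 0.0329). The joint-loss call was lost for Cyp2a4 with Z as the control group (adjusted p = 0.0622). A called difference between the comparisons was lost for Cyp2u1 without the Prss2 libraries (adjusted p = 0.233) and without any of mice 1442, 1445, 1428, 1450, 182, 201, 206 or 207 (adjusted p = 0.053 to 0.0825).

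In the growth hormone and IGF axis 4 of 19 tested members rose and 4 fell, at a median of 0.34 (7 and 2 with total-read scaling, 3 and 1 without the Prss2 libraries). The share called was 42.1%, beside 23.5% of all genes. Igfals, the acid-labile subunit that keeps IGF1 in the circulation, fell by 1.38 ± 0.22 (adjusted p = 0.000104), with 7.74, 7.45, 6.92, 7.25 and 7.26 log2 CPM in Zstar and 6.15, 6.28, 5.96, 5.72 and 5.64 in Z LIRKO F1KO. The groups did not overlap. Igfbp2, a secreted IGF-binding protein, stood at 7.58, 7.83, 7.76, 7.46 and 8.44 in Zstar and at 8.72, 8.51, 8.90, 8.95 and 8.93 in Z LIRKO F1KO, and rose by 0.99 ± 0.17 (adjusted p = 0.000163). With receptor loss alone it rose by 3.30 ± 0.18, reaching 11.60, 12.12, 12.05 and 12.36, and the difference between the comparisons was -2.31 (95% interval -2.81 to -1.82, limma adjusted p = 1.34e-06). Calls with joint loss were lost for Igfals and Igfbp2 with Z as the control group (adjusted p = 0.0558 to 0.8).

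With joint loss 6 of 24 genes of fat synthesis and 2 of 26 of cholesterol synthesis were called, beside 23.5% of all genes. In lipogenesis 1 of 24 tested members rose and 5 fell, at a median of -0.28 (1 and 1 with total-read scaling, 1 and 1 without the Prss2 libraries), and in cholesterol synthesis and uptake none of 26 tested members rose and 2 fell, at a median of -0.059 (1 and 0 with total-read scaling, 0 and 0 without the Prss2 libraries). The background was 12.4% higher and 11.1% lower. Receptor loss alone gave 0 higher and 11 lower in lipogenesis (median -0.53) and 1 higher and 15 lower in cholesterol synthesis (median -0.69), where the difference between the comparisons was called for 2 and 2 members. Of all genes 34.3% were called with receptor loss alone and 6.63% in the difference. With total-read scaling the median of cholesterol synthesis turned to 0.16. The 6 calls of lipogenesis became 2 without mouse 206 and 3 without any of mice 120, 182 or 207. Those of cholesterol synthesis ranged from 0, without mouse 207, to 3. Acacb, the acetyl-CoA carboxylase at mitochondria, fell by 1.19 ± 0.31 (adjusted p = 0.00631), Agpat2, an acyltransferase of triglyceride synthesis, by 0.47 ± 0.13 (adjusted p = 0.00947), and Ebp, a sterol isomerase, by 0.39 ± 0.11 (adjusted p = 0.0138). With joint loss, no call was left for Acacb, Agpat2 and Ebp without the Prss2 libraries (adjusted p = 0.0526 to 0.125), Agpat2 and Ebp with total-read scaling (adjusted p = 0.148 to 0.276), Ebp with Z as the control group (adjusted p = 0.544) and without mouse 207 (adjusted p = 0.0542).

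Around stored and transported fat, 1 of 16 tested members rose and 3 fell, at a median of -0.14 (3 and 1 with total-read scaling, 0 and 3 without the Prss2 libraries) in the lipid droplet list. Over all genes 12.4% were called higher and 11.1% lower. Plin5, which ties lipid droplets to mitochondria, went from 5.06, 5.28, 4.40, 5.22 and 5.34 log2 CPM in Zstar to 5.84, 5.59, 5.99, 6.41 and 6.26 in Z LIRKO F1KO (0.96 ± 0.25, adjusted p = 0.0075) without overlap. It fell with receptor loss alone (-1.04 ± 0.27), and the difference between the comparisons was 2.0 (95% interval 1.24 to 2.76, limma adjusted p = 0.00141), but against Z as the control group Plin5 differed by -0.073. Fitm1, a fat storage protein, fell by 1.29 ± 0.36 (adjusted p = 0.0104), with mouse 207 lowest at 3.35. Among apolipoproteins and genes of VLDL 1 of 26 tested members rose and 6 fell, at a median of -0.25 (3 and 1 with total-read scaling, 1 and 3 without the Prss2 libraries). Apoa4, an apolipoprotein of triglyceride-rich particles, fell by 1.34 ± 0.25 (adjusted p = 0.000539), while the increase was in Lpl, which stood at 3.98, 4.58, 4.57, 4.03 and 4.50 in Zstar and 6.41, 5.95, 6.35, 6.0 and 7.12 in Z LIRKO F1KO. Lpl rose by 3.73 ± 0.30 with receptor loss alone, and the difference was -1.69 (95% interval -2.53 to -0.86, limma adjusted p = 0.0132). Lpl is also a gene of macrophages, whose markers rose in the same livers, and their part in it was not tested. In fatty acid oxidation under PPARA 2 of 29 tested members rose and 1 fell, at a median of 0.055 (7 and 0 with total-read scaling, 1 and 1 without the Prss2 libraries). The 3 calls of the list became 5 without mouse 170 and 6 without either of mice 285 and 169. Ehhadh, a bifunctional enzyme of peroxisomes, rose by 1.0 ± 0.19 (adjusted p = 0.000665). In the joint-loss comparison the call was lost for Ehhadh, Fitm1 and Plin5 with Z as the control group (adjusted p = 0.126 to 0.876) and Plin5 without the Prss2 libraries (adjusted p = 0.164).

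Among genes of glycogen and glucose handling 4 of 24 tested members rose and 6 fell, at a median of -0.22 (4 and 2 with total-read scaling, 3 and 4 without the Prss2 libraries). The shares over all genes were 12.4% higher and 11.1% lower. The 10 calls of the list became 6 without mouse 207. Hk2 and Hk3, hexokinases that hepatocytes normally hold at low levels, rose by 1.36 ± 0.21 (adjusted p = 7.69e-05) and 1.48 ± 0.21 (adjusted p = 3.03e-05). Hk2 stood at 0.75, 0.68, 0.49, 0.25 and 0.43 log2 CPM in Zstar and 1.60, 1.37, 1.63, 2.39 and 2.43 in Z LIRKO F1KO, and Hk3 at 2.15, 1.93, 2.53, 2.67 and 2.98 and 3.52, 3.52, 3.61, 4.80 and 4.22, each without overlap. Hk3 is also a gene of myeloid cells, whose markers rose in the same livers, and their part in it was not tested. Gbe1, the glycogen branching enzyme, fell by 1.0 ± 0.15 (adjusted p = 7.42e-05). Of bile acid genes 1 of 25 tested members rose and 5 fell, at a median of -0.18 (2 and 2 with total-read scaling, 2 and 3 without the Prss2 libraries). Cyp8b1, the sterol 12alpha-hydroxylase that directs synthesis to cholic acid, stood at 7.58, 8.53, 7.66, 8.04 and 7.86 in Zstar and 6.95, 5.65, 6.06, 5.82 and 4.13 in Z LIRKO F1KO, lowest in mouse 207. It fell by 2.21 ± 0.46 (adjusted p = 0.00116), was not called with receptor loss alone (0.55 ± 0.48, adjusted p = 0.402), and the difference between the comparisons was -2.76 (95% interval -4.13 to -1.39, limma adjusted p = 0.0134). Nr0b2, the nuclear receptor SHP that represses bile acid synthesis, fell by 1.62 ± 0.30 (adjusted p = 0.000412), and Cyp27a1, the sterol 27-hydroxylase, by 0.58 ± 0.16 (adjusted p = 0.0092). The joint-loss call was lost for Cyp27a1 with total-read scaling (adjusted p = 0.0515) and Cyp8b1 with Z as the control group (adjusted p = 0.344). The difference between the comparisons was no longer called for Cyp8b1 without the Prss2 libraries (adjusted p = 0.069).

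Because the Z variant accumulates in the endoplasmic reticulum, its chaperones and degradation genes were followed. In this list none of 38 tested members rose and 9 fell, at a median of -0.26 (1 and 2 with total-read scaling, 0 and 4 without the Prss2 libraries). The share called, 23.7%, was near the 23.5% over all genes (12.4% higher, 11.1% lower). The mean level of the list was 7.78, 7.72, 7.78, 7.92 and 7.75 log2 CPM in Zstar and 7.25, 7.67, 7.55, 7.60 and 7.37 in Z LIRKO F1KO. On the authors' scaling all 5 joint-loss livers lay lower, mouse 170 only just below Zstar mouse 182. With total-read scaling the median difference of the list was -0.045, so this separation depends on the scaling. Derl3, a derlin of ER-associated degradation, stood at 5.79, 6.34, 6.18, 6.39 and 7.56 in Zstar and at 4.16, 5.25, 4.60, 5.09 and 4.33 in Z LIRKO F1KO, without overlap, and fell by 1.77 ± 0.42 (adjusted p = 0.00368). Sel1l, the partner of the ubiquitin ligase HRD1, fell by 0.50 ± 0.13 (adjusted p = 0.0059), and Os9, a lectin of the same complex, by 0.53 ± 0.12 (adjusted p = 0.00194). Calls with receptor loss alone were 1 higher and 27 lower in this list, with a median of -0.60, beside 34.3% called over all genes. The difference between the comparisons was called for 2 members, beside 6.63% of all genes. Of the ATF4 and CHOP stress targets none of 24 tested members rose and 3 fell, at a median of 0.068 (3 and 2 with total-read scaling, 0 and 2 without the Prss2 libraries). The 3 calls of the list became 6 without either of mice 249 and 169. Aars, the alanyl-tRNA synthetase, fell by 0.69 ± 0.12 (adjusted p = 0.000246). Sesn2, a sestrin, fell by 0.78 ± 0.19 (adjusted p = 0.00516) although it rose with receptor loss alone (0.60 ± 0.21), a difference of -1.38 (95% interval -1.96 to -0.80, limma adjusted p = 0.00378). Calls with joint loss were lost for Os9 without the Prss2 libraries (adjusted p = 0.06) and Sel1l with total-read scaling (adjusted p = 0.09).

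In the proteasome none of 34 tested members rose and 4 fell, at a median of -0.094 (2 and 0 with total-read scaling, 0 and 3 without the Prss2 libraries). The share called was 11.8%, below the 23.5% over all genes (12.4% higher, 11.1% lower). The 4 calls of the list became 1 without mouse 169 and 2 without either of mice 182 and 207. Psmd8, a subunit of its regulatory particle, fell by 0.27 ± 0.07 (adjusted p = 0.005). In autophagy and lysosome genes 3 of 29 tested members rose and 6 fell, at a median of -0.15 (5 and 3 with total-read scaling, 2 and 4 without the Prss2 libraries). The increases included Ctss, a cathepsin of antigen-presenting cells whose markers rose too (1.33 ± 0.18, adjusted p = 2.07e-05), and Hexa, a lysosomal hexosaminidase subunit (0.54 ± 0.09, adjusted p = 0.000154). The decreases included Wipi1, a protein of early autophagosomes (-0.56 ± 0.11, adjusted p = 0.00111), and Lamp1, a lysosomal membrane protein (-0.41 ± 0.09, adjusted p = 0.00215). In the respiratory chain none of 37 tested members rose and 9 fell, at a median of -0.23 (0 and 2 with total-read scaling, 0 and 6 without the Prss2 libraries), and the median was -0.011 with total-read scaling. The share called in the respiratory chain, 24.3%, was near that over all genes. Ndufa10 of complex I fell by 0.42 ± 0.08 (adjusted p = 0.000482), Ndufb3 by 0.77 ± 0.18 (adjusted p = 0.00365) and Cox6a1 of complex IV by 0.53 ± 0.13 (adjusted p = 0.00515). With receptor loss alone the counts were 6 higher and 1 lower, and 9 members, Ndufa10 among them, were lower in the difference between the comparisons. Over all genes 34.3% were called with receptor loss alone and 6.63% in the difference. Of the NRF2 targets, which answer oxidative stress, 4 of 28 tested members rose and 5 fell, at a median of -0.14 (4 and 1 with total-read scaling, 5 and 1 without the Prss2 libraries). The 9 calls of the list became 5 without any of mice 249, 251 or 207. Hmox1, heme oxygenase 1, rose by 0.79 ± 0.17 (adjusted p = 0.00176) and Taldo1, the transaldolase, fell by 0.49 ± 0.10 (adjusted p = 0.0014). Macrophage markers rose in the same livers, and their part in Hmox1 was not tested. With joint loss, no call was left for Cox6a1 and Psmd8 with total-read scaling (adjusted p = 0.0926 to 0.627) and Cox6a1, Ndufb3, Psmd8 and Taldo1 with Z as the control group (adjusted p = 0.0923 to 0.412).

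More coagulation and complement genes fell than rose. Among them 1 of 30 tested members rose and 12 fell, at a median of -0.23 (2 and 3 with total-read scaling, 1 and 3 without the Prss2 libraries), against 11.1% lower among all genes. The 13 calls of the list became 7 without either of mice 206 and 207 and 8 without mouse 182. C9, the pore-forming component of complement, fell by 1.32 ± 0.26 (adjusted p = 0.000879), and Masp1, a protease of the lectin pathway, by 0.68 ± 0.12 (adjusted p = 0.000345). Against Z as the control group C9 differed by 0.11. Of acute phase genes 2 of 31 tested members rose and 4 fell, at a median of -0.088 (4 and 4 with total-read scaling, 0 and 5 without the Prss2 libraries). Saa4, the constitutive serum amyloid A, fell by 1.81 ± 0.23 (adjusted p = 7.37e-06), and Orm1, orosomucoid, by 0.92 ± 0.18 (adjusted p = 0.00055). Serpina3n, a protease inhibitor induced by inflammation, fell by 0.81 ± 0.18 (adjusted p = 0.00211) but rose by 0.86 ± 0.19 with receptor loss alone, a difference of -1.67 (95% interval -2.22 to -1.13, limma adjusted p = 0.000297). Of other secreted hepatokines 4 of 26 tested members rose and 3 fell, at a median of 0.086 (8 and 2 with total-read scaling, 4 and 3 without the Prss2 libraries). Inhbe, a chain of activin E, stood at 6.17, 5.56, 5.69, 5.03 and 5.80 log2 CPM in Zstar and 4.02, 4.24, 3.73, 3.55 and 4.14 in Z LIRKO F1KO, and fell by 1.71 ± 0.34 (adjusted p = 0.000901). With receptor loss alone it fell by 4.83 ± 0.37, and the difference was 3.12 (95% interval 2.08 to 4.16, limma adjusted p = 0.000395). Among the 9 tested Serpina3 genes, near-copies of each other, 1 rose, Serpina3g, and 1 fell, Serpina3n. The 2 calls of the list became 5 without mouse 249. In the joint-loss comparison the call was lost for C9, Inhbe and Orm1 with Z as the control group (adjusted p = 0.136 to 0.81).

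Summed transcripts of Kupffer cells, the resident macrophages of the liver, were higher in every joint-loss liver than in any Zstar liver. Of the Kupffer cell markers 16 of 16 tested members rose and none fell, at a median of 0.98 (16 and 0 with total-read scaling, 14 and 0 without the Prss2 libraries), beside 12.4% higher over all genes. The summed level of the list was 667 to 758 CPM in Zstar and 1189 to 1966 CPM in Z LIRKO F1KO, and no marker was at 0 reads in any of the 10 libraries. Clec4f, a lectin of Kupffer cells, stood at 6.63, 6.75, 6.88, 7.0 and 6.94 log2 CPM in Zstar and at 7.80, 7.59, 7.49, 8.05 and 7.83 in Z LIRKO F1KO. It rose by 0.91 ± 0.10 (adjusted p = 2e-06) without overlap. Vsig4, a complement receptor, rose by 1.11 ± 0.11 (adjusted p = 4.82e-07), and Cd5l, a secreted macrophage protein, by 1.23 ± 0.14 (adjusted p = 1.63e-06). Csf1r, the receptor for the macrophage growth factor CSF1, rose by 1.03 ± 0.14 (adjusted p = 1.68e-05), and Folr2, a folate receptor, by 0.92 ± 0.13 (adjusted p = 2.14e-05). Receptor loss alone gave 12 higher and 0 lower in this list, beside 34.3% of all genes called. Vsig4 differed between the comparisons by 0.54 (95% interval 0.20 to 0.88, limma adjusted p = 0.0486). Of recruited macrophage and monocyte genes 11 of 18 tested members rose and none fell, at a median of 1.33 (12 and 0 with total-read scaling, 6 and 0 without the Prss2 libraries). Their mean log2 CPM was 1.20, 1.43, 2.27, 1.63 and 1.89 in Zstar and 1.91, 1.96, 3.25, 3.23 and 3.93 in Z LIRKO F1KO, with mice 169 and 170 inside the Zstar range and mice 201, 206 and 207 above it. Their summed level was 127 to 178 CPM in Zstar and 210 to 539 CPM in Z LIRKO F1KO, and on this measure mice 169 and 170 also lay above every Zstar mouse. Lyz2, the lysozyme of myeloid cells, rose by 1.44 ± 0.24 (adjusted p = 0.000154), Lgals3, galectin 3, by 1.76 ± 0.30 (adjusted p = 0.000219), Tyrobp, an adaptor of myeloid receptors, by 1.30 ± 0.24 (adjusted p = 0.000367) and Cd9, a tetraspanin of scar-associated macrophages, by 1.67 ± 0.32 (adjusted p = 0.00064). Receptor loss alone gave 2 higher and 0 lower, and the difference for Lyz2 was 1.24 (95% interval 0.52 to 1.96, limma adjusted p = 0.034). The joint-loss call was lost for Folr2 with Z as the control group (adjusted p = 0.279). Between the comparisons, the call was lost for Lyz2 without any of mice 1410, 1442, 1445, 1428, 1450, 120, 182, 206 or 207 (adjusted p = 0.0537 to 0.0751), Lyz2 and Vsig4 without the Prss2 libraries (adjusted p = 0.32 to 0.329), in a fit of the compared groups alone (adjusted p = 0.0566 to 0.0685), Vsig4 without the variance trend (adjusted p = 0.0612) and with voom weights (adjusted p = 0.0503). This was also the case for Vsig4 with the clock value as a covariate (adjusted p = 0.0546) and without any of mice 1410, 1442, 1443, 1445, 1427, 1428, 1450, 120, 182, 251, 285, 169, 206 or 207 (adjusted p = 0.0507 to 0.0924).

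Other cells of the liver followed in part. Their counts stand beside 12.4% higher and 11.1% lower over all genes. Of 18 tested lymphocyte genes, of 24 listed, 10 rose and none fell (13 and 0 with total-read scaling, 5 and 0 without the Prss2 libraries). The summed level was 22.9 to 31.3 CPM in Zstar and 48.7 to 98 CPM in Z LIRKO F1KO, so these transcripts were few in both. Ptprc, the leukocyte antigen CD45, rose by 1.69 ± 0.19 (adjusted p = 1.54e-06), and Ighm, the immunoglobulin M heavy chain, by 1.21 ± 0.26 (adjusted p = 0.00162). Ptprc, which counts in the summed level, stood at 2.99 to 3.62 log2 CPM in Zstar and at 4.44 to 5.61 in Z LIRKO F1KO. It is a gene of all leukocytes, and macrophage markers rose in the same livers. Their part in Ptprc and in the summed level was not tested. Of endothelial genes 7 of 24 tested members rose and none fell, at a median of 0.33 (18 and 0 with total-read scaling, 5 and 0 without the Prss2 libraries). Fcgr2b, an Fc receptor of sinusoidal cells, rose by 0.61 ± 0.10 (adjusted p = 0.000209), Clec4g, a sinusoidal lectin, by 0.40 ± 0.09 (adjusted p = 0.00239), and Mrc1, the mannose receptor, by 0.66 ± 0.13 (adjusted p = 0.000603). The part of macrophages in Mrc1 was not tested. Of stellate cell and matrix genes 12 of 31 tested members rose and 1 fell, at a median of 0.51 (23 and 0 with total-read scaling, 5 and 0 without the Prss2 libraries). The 13 calls of the list became 6 without mouse 207, 7 without either of mice 120 and 201 and 8 without either of mice 285 and 206. Lum, a matrix proteoglycan, rose by 1.09 ± 0.20 (adjusted p = 0.000436), and Vim, the filament protein vimentin, by 0.88 ± 0.19 (adjusted p = 0.00136). The mean log2 CPM of the list was 3.66, 3.68, 4.09, 3.46 and 3.49 in Zstar and 3.77, 3.75, 4.67, 4.17 and 4.75 in Z LIRKO F1KO, high in mice 201 and 207, while mice 169 and 170 lay within the Zstar range. The summed level ran the other way, at 2731 to 4162 CPM in Zstar and 2293 to 3294 CPM in Z LIRKO F1KO, and overlapped. Of bile duct genes 2 of 14 tested members rose and 1 fell, at a median of 0.20 (2 and 1 with total-read scaling, 2 and 1 without the Prss2 libraries), with Aqp1, a water channel also of endothelium, higher by 0.51 ± 0.11 (adjusted p = 0.0019) and Krt19, a keratin of bile ducts, at a difference of 0.29 (adjusted p = 0.487). Of the 4 tested neutrophil genes 1 rose, and none did without mouse 206 or without mouse 207. Calls with joint loss were lost for Mrc1 with Z as the control group (adjusted p = 0.0595).

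More cell cycle genes rose than fell, also under the other scaling and without the Prss2 libraries. Over all genes the calls were 12.4% higher and 11.1% lower. Of the cell cycle list 18 of 30 tested members rose and 1 fell, at a median of 0.85 (22 and 1 with total-read scaling, 7 and 1 without the Prss2 libraries). The mean level was 1.52, 1.67, 2.07, 1.29 and 1.65 log2 CPM in Zstar and 1.61, 2.09, 2.55, 2.94 and 2.82 in Z LIRKO F1KO, so mouse 169 lay within the Zstar range and Zstar mouse 249 near the joint-loss mouse 170. Beside Ccnd1, the ribonucleotide reductase subunit Rrm1 rose by 0.77 ± 0.14 (adjusted p = 0.000346), the replication helicase subunit Mcm3 by 0.94 ± 0.20 (adjusted p = 0.00167) and the topoisomerase Top2a by 1.52 ± 0.32 (adjusted p = 0.00147). Top2a stood at 1.16, 1.20, 2.18, 0.68 and 1.18 in Zstar and 1.71, 2.24, 3.05, 3.68 and 3.32 in Z LIRKO F1KO, which overlapped. Receptor loss alone gave 15 higher and 3 lower in this list, and none of its members was called in the difference between the comparisons. The shares of all genes were 34.3% with receptor loss alone and 6.63% in the difference. Macrophage markers rose in the same livers, and their part in the cell cycle counts was not tested. Of NF-kB subunits and targets 6 of 20 tested members rose and 2 fell, at a median of 0.39 (10 and 0 with total-read scaling, 2 and 0 without the Prss2 libraries). The 8 calls of the list became 3 without mouse 207 and 4 without either of mice 120 and 206. Macrophage markers moved with this list too, and their part was not tested. Vcam1, an adhesion molecule for leukocytes, rose by 1.64 ± 0.31 (adjusted p = 0.000476) and Icam1, a further one, by 0.88 ± 0.19 (adjusted p = 0.00157). Of AP-1 and immediate early genes 4 of 25 tested members rose and 1 fell, at a median of 0.25 (5 and 1 with total-read scaling, 1 and 1 without the Prss2 libraries). The 5 calls of the list became 3 without mouse 120. Gadd45b, a stress-induced protein, rose by 2.16 ± 0.40 (adjusted p = 0.000411). Of interferon and antigen presentation genes 4 of 34 tested members rose and 1 fell, at a median of 0.037 (6 and 0 with total-read scaling, 2 and 5 without the Prss2 libraries). The 5 calls of the list became 3 without either of mice 251 and 207. Ifit2, an interferon-induced protein, rose by 0.96 ± 0.23 (adjusted p = 0.00368). With joint loss, no call was left for Ifit2 with Z as the control group (adjusted p = 0.0898).

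Genes of zonation, hepatocyte transcription factors and the clock were called at shares near the 23.5% over all genes. Among the 9 tested defining hepatocyte genes Ttr, the thyroid hormone carrier transthyretin, fell by 0.80 ± 0.13 (adjusted p = 0.000151), and no other was called. The 1 call of the list became 2 without mouse 201 and 3 without mouse 249. Of pericentral genes 2 of 20 tested members rose and 2 fell, at a median of -0.25 (5 and 1 with total-read scaling, 3 and 2 without the Prss2 libraries), and of urea cycle and periportal genes 3 of 23 tested members rose and 3 fell, at a median of 0.11 (5 and 1 with total-read scaling, 3 and 2 without the Prss2 libraries). Oat, the ornithine aminotransferase of pericentral hepatocytes, rose by 1.41 ± 0.23 (adjusted p = 0.000134). Cyp2f2, a periportal cytochrome P450, fell by 1.66 ± 0.25 (adjusted p = 6.29e-05), and Slc7a2, a transporter of arginine, rose by 0.85 ± 0.22 (adjusted p = 0.00639). Cyp2f2 stood at 11.14, 11.28, 10.72, 10.88 and 10.35 log2 CPM in Zstar and 9.83, 9.95, 9.32, 8.77 and 8.18 in Z LIRKO F1KO, without overlap. Of xenobiotic metabolism genes none of 28 tested members rose and 3 fell, at a median of -0.16 (5 and 3 with total-read scaling, 2 and 2 without the Prss2 libraries). The 3 calls of the list became 5 without any of mice 120, 249 or 285. Cyp2c70, which makes muricholic acids in mice, fell by 0.94 ± 0.24 (adjusted p = 0.00573). Of hepatocyte transcription factors 1 of 24 tested members rose and 4 fell, at a median of -0.20 (3 and 0 with total-read scaling, 1 and 1 without the Prss2 libraries), with 3 calls without mouse 207, and of fetal and liver tumour markers 1 of 16 tested members rose and 1 fell, at a median of 0.23 (3 and 0 with total-read scaling, 1 and 1 without the Prss2 libraries). The 2 calls of the list became 1 without any of mice 120, 182 or 169. Cd24a, a surface protein of progenitor and bile duct cells, rose by 1.15 ± 0.31 (adjusted p = 0.00844). Of circadian clock genes 1 of 22 tested members rose and 5 fell, at a median of -0.18 (4 and 5 with total-read scaling, 1 and 4 without the Prss2 libraries). The repressor Nfil3 fell by 1.09 ± 0.26 (adjusted p = 0.00351), and the kinase Csnk1e rose by 0.70 ± 0.14 (adjusted p = 0.000899). The time of day at which livers were taken is not given in the labels. In the joint-loss comparison the call was lost for Cd24a, Cyp2c70 and Slc7a2 with Z as the control group (adjusted p = 0.177 to 0.732).

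**Figure D5:**
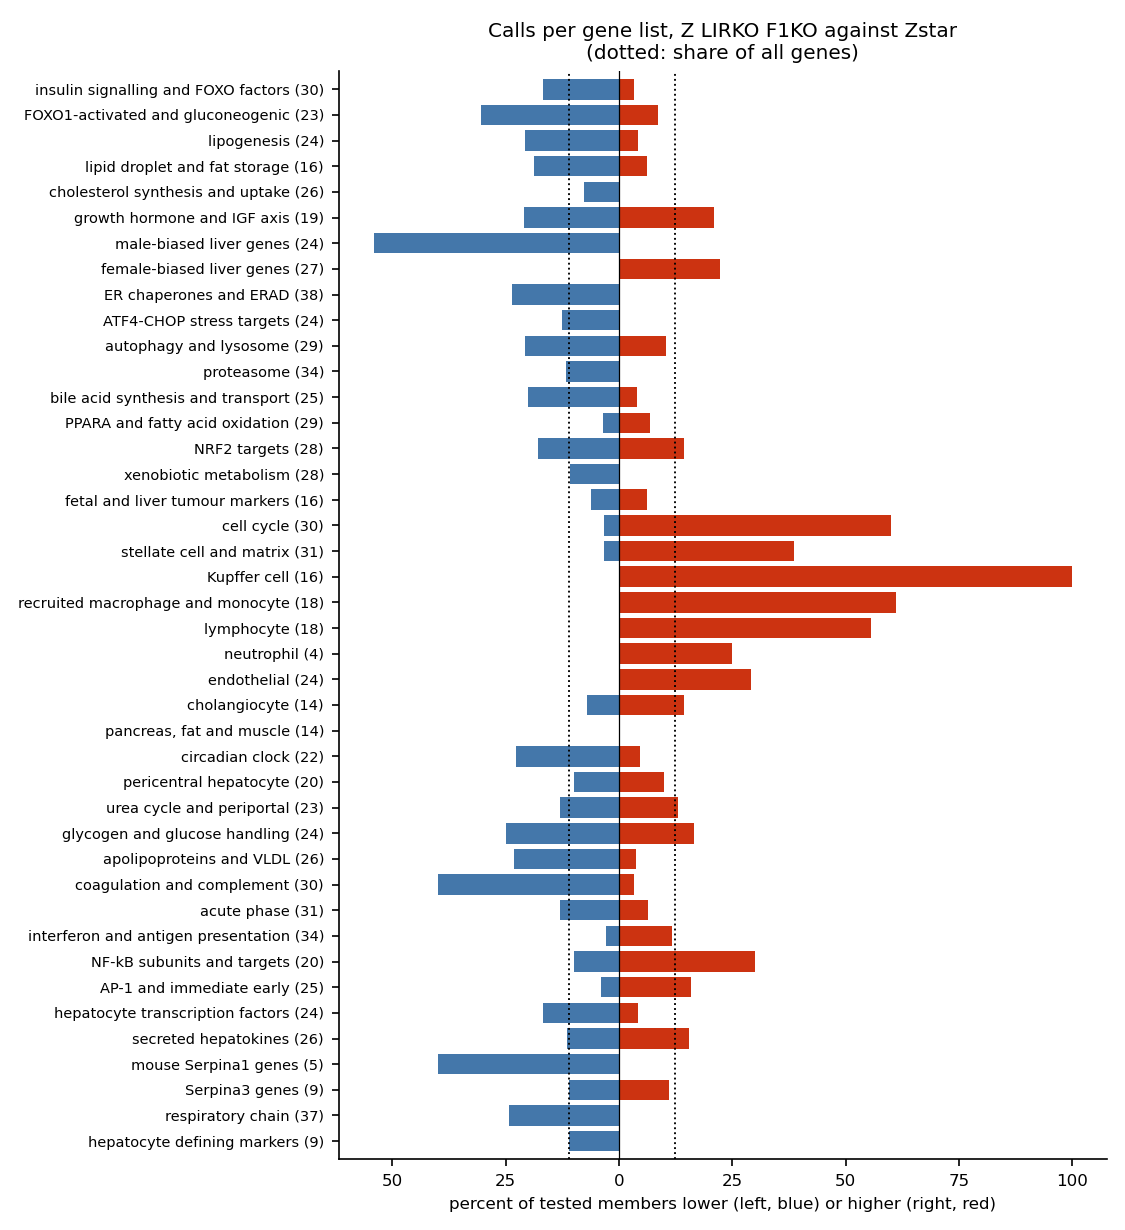
Percent of the tested members of each of 42 gene lists (number in brackets) called higher (red, right) or lower (blue, left) in Z LIRKO F1KO than in Zstar, with the shares over all genes, 12.4% and 11.1%, as dotted lines. Kupffer cell markers reach 100% higher and male-biased genes are the list with the largest share lower, 13 of 24, and 12 of 24 with total-read scaling.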

How the data were processed

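Liver RNA of the 10 compared mice was read from the deposited table of hemizygous mice, which holds log2 CPM values made by the authors, gene by gene, for 26 libraries of 6 groups. Per the submitters' processing notes STAR 2.0.4b, Subread, featureCounts 1.4.5 and the build GRCm38 were used, and how strand and multiply mapped reads were treated is not given in the sources used here. Values of overlapping, antisense and near-identical genes are therefore uncertain. 1 column of the table matches no sample and was not used. Whole reads were recovered from the deposited log2 values, which carry 0.5 added reads (100% of values were whole within 0.01 reads), and gave the read totals. Each mouse is 1 sample, and the spread is that between mice. Genes at or above 0 log2 CPM in 3 libraries were fitted with limma 3.58.1 in R 4.3.3, with 1 mean per group over all 6 groups and a variance trend. Simulated data, with independent noise between mice, tested only a fit of the 2 compared groups, not that of all 6. The contrasts were Z LIRKO F1KO minus Zstar, Z LIRKO minus Z, and the difference of both. P-values are two-sided and adjusted by Benjamini-Hochberg over all tested genes, with a call at 0.05, and errors are SE. Named genes were the 12 largest called changes each way among genes with a symbol, at least 2 log2 CPM on average and no overlap, predicted genes and pseudogenes left out, the 5 largest each way in the difference of the contrasts, the targeted genes, the Serpina1 genes, all FOXO1-activated and gluconeogenic genes, and up to 4 members of each list with the smallest p, or 6 where 50% were called. A few genes that the rule names are not reported here. The compared groups, gene lists and rules were chosen with earlier results of these data known, and lists carry no test of their own. Alternatives were other filters, log2(CPM + 1), centring, no trend, voom weights, fits of the compared groups alone, Z as control, a clock covariate, libraries left out singly or for Prss2 above 0 log2 CPM and, added after the data were seen, scaling by total reads. Promoters were read from RefSeq tables of GRCm38.p6.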

Additional observations from a re-analysis of the deposited data

Results flagged for a closer look

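In 19 gene and group pairs 1 of the 5 mice lay far from the other 4, with a gap to its neighbour of over 0.71 of the group's range, a limit that chance passes in about 1 in 20 groups. The pairs come from 135 named genes in 2 groups each, so many of them would arise by chance. Zstar mouse 120 was the lowest of its group for Fbxo32 at 0.70, Cd9 at 2.02 and Folr2 at 3.31 log2 CPM. The highest value in Zstar belonged to mouse 120 for Col27a1 at 7.27 and Slc22a28 at 5.24 log2 CPM. Zstar mouse 249 was the lowest of its group for Cyp2d9 at 9.92 log2 CPM. The highest value in Zstar belonged to mouse 251 for Sel1l at 8.94 and Ttr at 12.92 log2 CPM. Zstar mouse 251 was the lowest of its group for Serpina1e at 8.73 log2 CPM. The lowest value in Zstar belonged to mouse 285 for Mrc1 at 5.21, Klf15 at 7.72 and Lepr at 0.97 log2 CPM. Zstar mouse 285 was the highest of its group for Apoa4 at 7.11 log2 CPM. The highest value in Z LIRKO F1KO belonged to mouse 169 for Insr at 5.44 log2 CPM. Z LIRKO F1KO mouse 169 was the lowest of its group for Psmd8 at 7.02 and Tcf24 at 1.63 log2 CPM. The highest value in Z LIRKO F1KO belonged to mouse 207 for Fst at 4.84 log2 CPM. Z LIRKO F1KO mouse 207 was the lowest of its group for Fitm1 at 3.35 and Taldo1 at 5.95 log2 CPM. For 28 named genes the change with joint loss differed from the change with receptor loss alone by the test of the difference in limma, on the log2 scale. The difference was above 0, so that the change with joint loss lay above that with receptor loss alone, also where both were decreases, for Tcf24 (5.62), Slc10a2 (5.55), Elovl3 (5.19), Slc22a28 (4.60), Inhbe (3.12), Mup3 (2.95), Mup20 (2.67), Plin5 (2.0), Trp53inp1 (1.74), Lyz2 (1.24), Ttr (0.67), Vsig4 (0.54) and Psmd8 (0.33). It was below 0 for Lepr (-4.50), Serpinb1a (-4.26), Tbc1d30 (-3.83), Olig1 (-3.53), Cyp8b1 (-2.76), Irs2 (-2.54), Foxo1 (-2.32), Igfbp2 (-2.31), Lpl (-1.69), Serpina3n (-1.67), Cyp2u1 (-1.59), Sesn2 (-1.38), Sesn3 (-1.37), Pcx (-0.81) and Ndufa10 (-0.39). FOXO1 status and source name cannot be told apart in these values. Under alternatives this call was lost for Ndufa10 with total-read scaling (adjusted p = 0.0932), with the clock value as a covariate (adjusted p = 0.0516), without any of mice 1410, 1442, 1445, 1412, 1427, 1428, 1450, 120, 182, 206 or 207 (adjusted p = 0.057 to 0.0751), Ndufa10 and Psmd8 without the variance trend (adjusted p = 0.0528 to 0.0546), Ndufa10, Psmd8 and Ttr without the Prss2 libraries (adjusted p = 0.154 to 0.249), in a fit of the compared groups alone (adjusted p = 0.074 to 0.0838), Psmd8 with voom weights (adjusted p = 0.052), with libraries centred on their medians (adjusted p = 0.0525), without any of mice 1410, 1442, 1443, 1445, 1412, 1428, 1450, 120, 182, 249, 251, 285, 170, 201, 206 or 207 (adjusted p = 0.0516 to 0.0864) and Ttr without any of mice 1442, 1445, 1428, 1450, 120, 182, 249, 285, 201, 206 or 207 (adjusted p = 0.0502 to 0.101).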

How the results depend on the processing

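Without the Prss2 libraries the joint-loss calls fell from 3196 to 1683 (959 higher, 724 lower), those in the difference between the comparisons from 901 to 363, the calls shared with receptor loss alone from 1704 to 862 and those within 10 Mb of Insr from 15 to 5. With Z as the control group the last count was 7, beside 2741 joint-loss calls over all genes. Fewer libraries entered the first of these fits. Scaling by total reads gave 3773 higher and 526 lower, and asking for at least 2-fold left 969. Leaving out 1 mouse gave 2349 to 3238 joint-loss calls (1301 to 1735 higher, 1048 to 1521 lower), 535 to 1072 calls in the difference between the comparisons, lowest without Z LIRKO mouse 1428, 10 to 18 near Insr and 7 to 11 near Foxo1. Voom weights on recovered reads gave 3175 joint-loss calls. The other counts stayed within 1.5 times of their value under the filters, log2(CPM + 1), centring, no trend, voom weights, fits of the compared groups alone and the clock covariate. Of 135 named genes 113 were called and 68 kept the call under all alternatives and single mice left out. With Z as the control group, which carries another source name than Z LIRKO F1KO, 33 lost it. Among genes called in either fit 5 turned in sign, Plin5 (-0.073), C9 (0.11), Ppargc1a (-0.14), Ccng2 (-0.80) and Tcf24 (-1.49), and the cause was not tested. A further 8 genes called in neither turned. Total-read scaling took the call from 13 and the lack of the Prss2 libraries from 13. No paired analysis was possible because the compared groups share no mouse number. Depth limits genes near -2.34 log2 CPM, the level of 3 reads in these libraries, where a difference may not have been detectable.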
